A study of Mus musculus with 38 samples.

Results

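Transcripts of 6 Hedgehog signalling genes (Smo, Gli3, Hhip, Gas1, Gli2 and Ptch1) were followed through bound and total RNA of mouse cortex and glioma. They were chosen by gene symbol, and each had 1 probe set among the 15644 genes measured; 5 of the 6 entered the 9799 genes tested, and Ptch1 did not. The 38 arrays fell into 12 groups, 18 arrays from tumours and 20 from adult cortex. Bound RNA is the RNA on tagged ribosomes that translating ribosome affinity purification draws from 1 population of cells, and total RNA comes from the whole tissue. The tumours were of 3 glioma models named Recruited, Pdgf Cre and Pdgf, and each gave a group of bound RNA, drawn from its Olig2 cells, and a group of total RNA, with n = 3 arrays in every group. The genes and agents that start these tumours are not given in the sources used here. The cortical groups were bound RNA of astrocytes (Aldh1l1 line), progenitors (Pdgfra line), mature oligodendrocytes (Cnp line), neurons (Snap25 line) and oligodendroglia (Olig2 line, called cortical Olig2 cells here), with n = 3 each, and total RNA of cortex, with n = 5. The mice of every group were of a mixed background of FVB, Swiss-Webster and c57/bl6j, those of cortex were adults without a tumour, labelled wildtype and pooled by at least 2, and a population is only as pure as the gene that drives its line. The labels put all cortical arrays in 1 dataset and all tumour arrays in a second, so that in each comparison of tumour with cortical RNA the dataset and the tumour cannot be told apart.

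Hedgehog proteins are secreted signals. Without them the receptor Ptch1 holds the membrane protein Smo inactive, and Gli3 is cut to a repressor of transcription. When the ligand binds Ptch1, helped by the co-receptors Gas1, Boc and Cdon, Smo moves into the primary cilium and Gli2 and Gli3 become activators; Hhip is a membrane protein that binds the ligand and takes it away from the receptor. Gli1, Ptch1 and Hhip are themselves classical targets of the pathway. In adult forebrain, neurons are known as a source of the ligand Shh and astrocytes as cells that can respond to it.

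A level is the log2 array signal after the arrays were put on a common scale. A level under log2 50 (5.64) is called dim, and the lowest level that occurs is 2.08. A gene passed a comparison with a limma adjusted p under 0.05 and a difference of at least 2-fold. The words rose and fell are kept for genes that passed with at least 1 group mean above the dim limit, and where 1 side is dim, the fold is a lower bound, taken against the limit itself and written as at least so many fold. Many replicates were deposited with identical values. Gas1 and Gli3 in astrocytes, Gas1 in progenitors and Hhip in cortical Olig2 cells are among such cases. The small spread shown for them comes from the common scaling and not from replicate error. Identical replicates make p values too small, and no source says that arrays of 1 group came from separate animals or pools, so the p values measure only the spread between these arrays.

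The reporter genes stood where the labels place them, with Aldh1l1 highest in astrocytes (11.45), Cnp in mature oligodendrocytes (14.23) and Snap25 in neurons (15.46), while Olig2 was highest in Recruited Olig2 cells (12.70) and Pdgfra in Pdgf tumour total RNA (13.20). All 13 measured astrocyte markers were above the dim limit in astrocytes and all 11 myelin markers in mature oligodendrocytes. The labels were not clean of other cells: Snap25 was at 11.40 in astrocytes and 14.04 in mature oligodendrocytes, and 11 of 13 astrocyte markers were above the limit in cortical Olig2 cells. The median SD of a gene above the limit ran from 0.052 in neurons to 0.487 in Recruited total RNA.

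The upstream sequences are shown for Gli2 and Gli3, the transcription factors of the pathway that rose in astrocytes, and for Hhip, the member that rose in mature oligodendrocytes. Each is the 250 bases before the RefSeq start on GRCm38.p6, read 5′ to 3′ on the gene's strand. Capitals mark the letters ACCACCC or their reverse complement, the core of the motif that Gli proteins bind.

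Gli2, chr1:119053620-119053869 (minus strand): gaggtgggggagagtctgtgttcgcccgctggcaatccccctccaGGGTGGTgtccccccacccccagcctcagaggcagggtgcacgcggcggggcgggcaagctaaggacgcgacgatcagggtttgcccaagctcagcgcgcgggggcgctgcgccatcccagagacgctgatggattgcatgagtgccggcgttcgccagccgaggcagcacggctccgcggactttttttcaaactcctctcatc

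Gli3, chr13:15463473-15463722 (plus strand): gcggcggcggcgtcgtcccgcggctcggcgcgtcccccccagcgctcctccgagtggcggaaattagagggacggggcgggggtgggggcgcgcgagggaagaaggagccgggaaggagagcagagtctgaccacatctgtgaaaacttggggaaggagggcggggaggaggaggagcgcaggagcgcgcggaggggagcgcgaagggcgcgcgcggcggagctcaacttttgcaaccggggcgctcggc

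Hhip, chr8:80058009-80058258 (minus strand): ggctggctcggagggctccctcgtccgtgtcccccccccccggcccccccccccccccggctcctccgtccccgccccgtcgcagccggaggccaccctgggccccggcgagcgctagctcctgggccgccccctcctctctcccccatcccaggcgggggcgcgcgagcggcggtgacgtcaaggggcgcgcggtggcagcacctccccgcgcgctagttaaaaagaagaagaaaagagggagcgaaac

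The 9-letter motif GACCACCCA, searched on both strands, was in 0 of the 6 members' upstream windows and in 74 of all 32851 windows of this length (0.225%). The shorter core, which lies within it and was chosen after that count was seen, was in 1289 windows (3.92%) and in 1 of the 6, that of Gli2, at bases 46 to 52 on the opposite strand. The windows of all 6 were rich in G and C, from 58.8% for Gas1 to 78.4% for Ptch1 (Smo 68.4%, Gli3 72.8%, Hhip 76%, Gli2 67.2%), against a median of 52.4% over all windows. They held 10 (Gas1) to 41 (Ptch1) CG dinucleotides, against a median of 6. These are matches of letters in a short window and say nothing of binding.

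**Figure D1:**
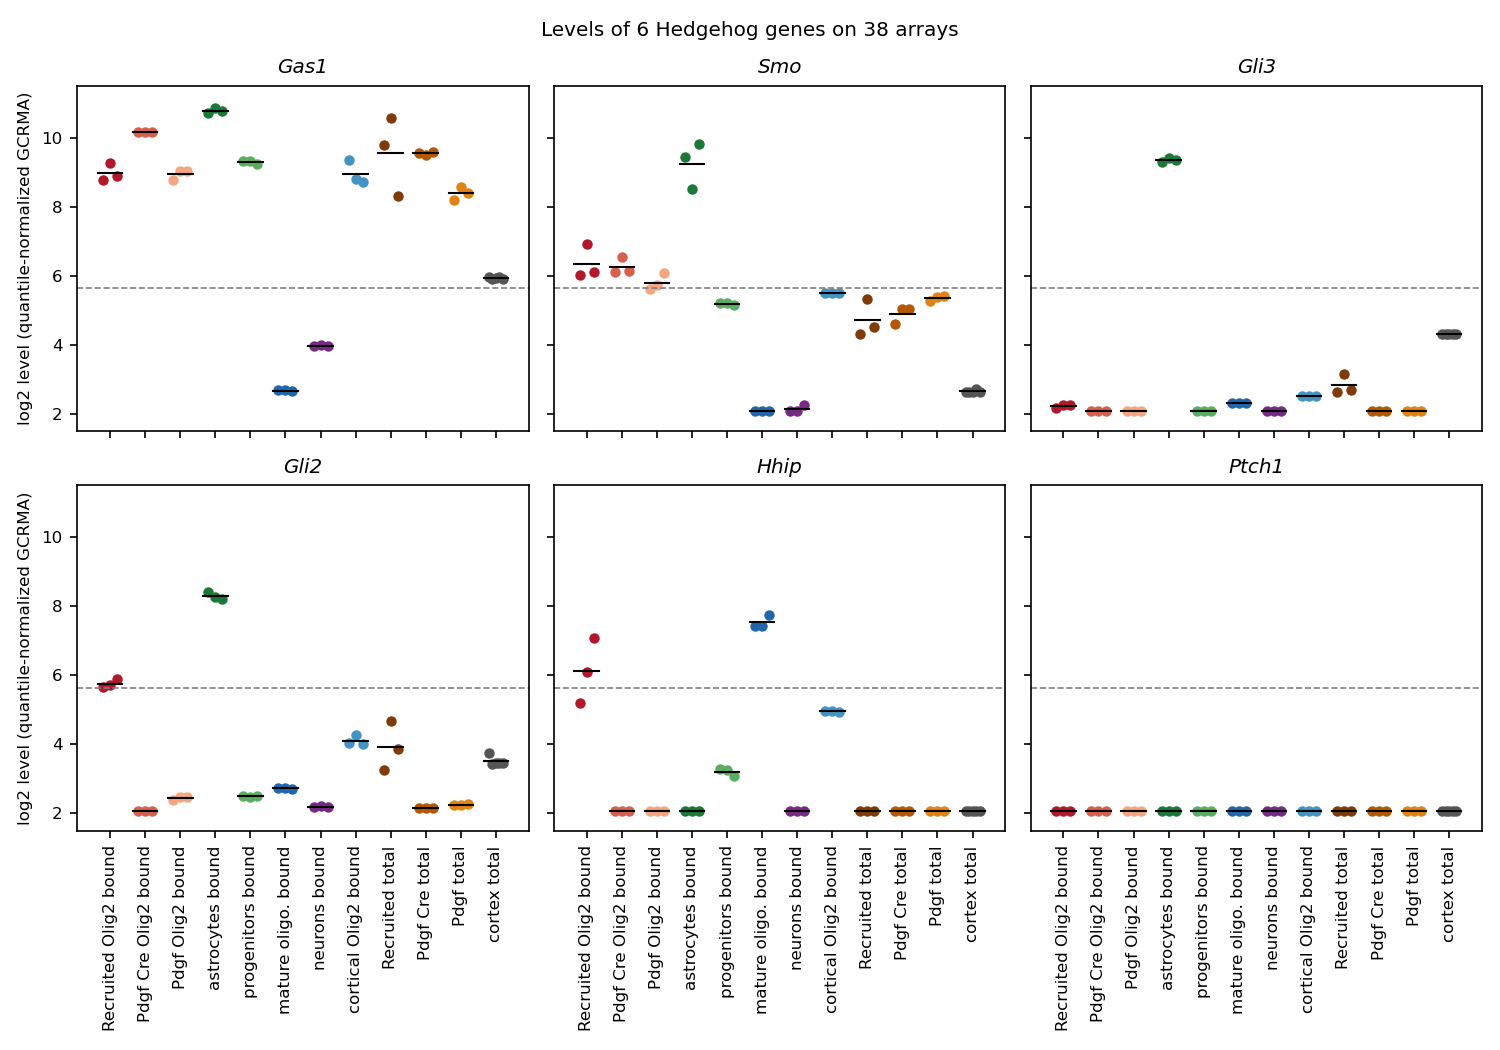
Log2 level (vertical axis) of 6 Hedgehog genes on each of 38 arrays (points), by group, with the group mean as a bar and the dim limit of 5.64 as a dashed line. Smo, Gli3 and Gli2 are highest in astrocytes, Hhip in mature oligodendrocytes, Gas1 is above the limit in 10 of 12 groups, and Ptch1 lies at 2.08 on every array.

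On the receptor side, Ptch1 was at the lowest level, 2.08, on all 38 arrays. The probe set gave no signal to compare, which at this sensitivity does not show that the transcript was absent. The co-receptor Cdon was at the same level on all arrays. The co-receptor Boc was at 6.28, 6.25 and 6.25 in astrocytes, 5.91, 5.89 and 5.90 in neurons, and 5.76 to 5.89 in cortex total RNA. It was dim in the other 9 groups and did not pass in astrocytes over cortex (log2 difference 0.44 ± 0.09 SE). Against cortex total RNA Boc fell in total RNA of each tumour model, at least 1.13-fold, a bound set by a cortical level close to the limit. In a bulk sample, fewer cells of a type and less RNA per cell cannot be told apart.

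Gas1, a membrane-anchored co-receptor first known for its rise in growth-arrested cells, was the most widely measured member. It was at 10.72, 10.87 and 10.77 in astrocytes, 10.17, 10.16 and 10.15 in Pdgf Cre Olig2 cells, and 9.32, 9.33 and 9.23 in progenitors. In Recruited Olig2 cells it was at 8.77, 9.27 and 8.90 and in Pdgf Olig2 cells at 8.77, 9.04 and 9.04, against 9.36, 8.80 and 8.72 in cortical Olig2 cells. In cortex total RNA it was at 5.90 to 5.97, in neurons at 3.98 to 3.99 and in mature oligodendrocytes at 2.65 to 2.69. Every array of the progenitor, Olig2, tumour and astrocyte groups thus lay above every cortex array, and neurons and mature oligodendrocytes lay below them. In the order of group means, Recruited, cortical and Pdgf Olig2 cells were neighbours whose arrays overlapped.

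Against cortex total RNA, Gas1 rose 28.9-fold in astrocytes (log2 difference 4.85 ± 0.25 SE, adjusted p = 6.78e-17; 31.1% of all tested genes called higher), 10.3-fold in progenitors (3.36 ± 0.25 SE; 24.4% called higher) and 8.14-fold in cortical Olig2 cells (3.03 ± 0.25 SE; 29.5%). It fell at least 1.22-fold in mature oligodendrocytes (27.7% of tested genes called lower) and at least 1.22-fold in neurons (14.8%). Between the ends of the oligodendrocyte lineage it was at least 12.6-fold higher in progenitors than in mature oligodendrocytes (adjusted p = 2.05e-18), where 18.8% of tested genes were called higher. In astrocytes it was 2.81-fold above progenitors and 3.55-fold above cortical Olig2 cells.

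Hhip was at 7.43, 7.42 and 7.76 in mature oligodendrocytes. It was at 5.20, 6.10 and 7.09 in Recruited Olig2 cells, with the first array dim, and at 4.97, 4.97 and 4.94 in cortical Olig2 cells and 3.27, 3.27 and 3.09 in progenitors, all dim. In the other 8 groups, astrocytes and every total RNA included, it was at the lowest level on every array. Hhip was thus measured above the limit in mature oligodendrocytes and Recruited Olig2 cells alone, and those arrays did not overlap. Against cortex total RNA it rose at least 3.71-fold in mature oligodendrocytes (log2 difference 5.46 ± 0.19 SE, adjusted p = 1.34e-20), where 25.2% of tested genes were called higher. Hhip exceeded the limit on the 3 mature oligodendrocyte arrays and 2 Recruited arrays, so it entered the test through the mature oligodendrocytes, had to differ there, and the p value lends no support of its own. Astrocytes lay at least 3.71-fold below mature oligodendrocytes (28.2% of tested genes called lower) and so did progenitors (19.9%).

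Smo, the transducer that all vertebrate Hedgehog signalling passes through, was at 9.44, 8.51 and 9.82 in astrocytes. It was at 6.03, 6.91 and 6.12 in Recruited Olig2 cells, 6.10, 6.55 and 6.14 in Pdgf Cre Olig2 cells and 5.62, 5.72 and 6.08 in Pdgf Olig2 cells, with the first of these last 3 arrays just under the limit and the others above it. It was dim in the other groups, at a mean of 5.49 in cortical Olig2 cells, 5.19 in progenitors, 4.72 to 5.36 in the tumours' total RNA, 2.65 in cortex total RNA, 2.14 in neurons and 2.08 in mature oligodendrocytes. The astrocyte arrays lay apart from all others, and those of Recruited and Pdgf Cre Olig2 cells overlapped.

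The transcription factor Gli3 was at 9.30, 9.41 and 9.34 in astrocytes and dim in the other 11 groups, the highest of them cortex total RNA at 4.31 to 4.33. Gli2, the main activator of the pathway, was at 8.40, 8.28 and 8.21 in astrocytes and at 5.66, 5.72 and 5.90 in Recruited Olig2 cells, and dim elsewhere, at 4.04, 4.26 and 4.02 in cortical Olig2 cells and 3.25, 4.67 and 3.88 in Recruited total RNA. Gli1, whose level is widely used as a readout of the pathway, was at 2.33, 2.27 and 2.33 in astrocytes and at or within 0.01 of the lowest level elsewhere. It was not tested, as Sufu, which binds Gli proteins in the cytoplasm and was at the lowest level on all arrays, was not.

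In astrocytes Smo, Gas1, Gli2 and Gli3 were higher than in every other cortical RNA, while Hhip, Ptch1 and Cdon were at the lowest level. Over cortex total RNA, Gas1, Smo, Gli3 and Gli2 rose, 4 of the 5 members tested, where 31.1% of all tested genes were called higher. Smo rose at least 12.2-fold (log2 difference 6.60 ± 0.22 SE, adjusted p = 1.01e-21), Gli3 at least 13.1-fold (5.03 ± 0.07 SE, adjusted p = 6.72e-31) and Gli2 at least 6.29-fold (4.78 ± 0.15 SE, adjusted p = 6.68e-22). Gli3 entered the test through its astrocyte arrays alone, and Gli2 through astrocyte and Recruited arrays, so that they had to differ and the count lends no support of its own. The same 4 members rose over neurons (27.6% of tested genes higher), mature oligodendrocytes (25.8%), progenitors (24.6%) and cortical Olig2 cells (22.6%). Hhip was at the lowest level in astrocytes and cortex alike.

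Other cells moved with this comparison as well. The summed signal of the astrocyte markers was 16.74 to 16.89 (log2) in astrocytes, against 14.93 to 15.10 in cortex total RNA. Of the 8 ependymal and choroid plexus markers 3 were above the limit in astrocytes, against 1 in cortex, and their sum was 9.69 to 13.95 in astrocytes, against 6.04 to 12.02 in cortex. The 3 above the limit in astrocytes were Ttr, Ccdc153 and Rarres2, and Ccdc153 (6.12) was above it in astrocytes alone, as Gli3 was. The other 5, Foxj1, Tmem212, Clic6, Folr1 and Kl, were dim there. None of the 8 endothelial markers was above the limit in astrocytes or cortex. The part of ependymal RNA in the Hedgehog values was not tested.

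In Recruited Olig2 cells Hhip and Gli2 were higher than in the Olig2 cells of the other tumours and of cortex. Over Pdgf Olig2 cells 2 of 5 members rose (12.8% of tested genes called higher), over Pdgf Cre Olig2 cells 2 rose (17.5%) and 1, Gas1, fell (17.0% called lower), and over cortical Olig2 cells 2 rose (12.9%). Hhip was at a mean of 6.13 ± 0.94 (SD) in Recruited Olig2 cells, against 2.08 in Pdgf and Pdgf Cre Olig2 cells and 4.96 ± 0.01 in cortical Olig2 cells, so that it rose at least 1.40-fold over each. The difference on the log2 scale was 4.05 ± 0.22 SE over each tumour model (adjusted p = 1.39e-15 and 7.99e-16) and 1.17 ± 0.22 SE over cortical Olig2 cells (adjusted p = 5.02e-05). Without the third Recruited array the last was 0.69 and no longer reached 2-fold, and with spike-in scaling it was 0.93 and not called. These SEs pool all 12 groups, in 9 of which the Hhip replicates were deposited as identical, so they understate the Recruited spread. The difference over cortical Olig2 cells was not called in a limma fit of the compared groups alone (adjusted p = 0.12). With a floor on the variance it was not called either (adjusted p = 0.101). The Hhip calls over the tumour models were kept in both. Gli2 was at 5.76 ± 0.13 in Recruited Olig2 cells, against 2.44 ± 0.04 in Pdgf, 2.08 in Pdgf Cre and 4.11 ± 0.13 in cortical Olig2 cells, and rose at least 1.08-fold over each, since its mean was barely above the limit. Its log2 differences were 3.32 ± 0.17 SE over Pdgf, 3.68 ± 0.17 SE over Pdgf Cre and 1.65 ± 0.17 SE over cortical Olig2 cells, the last 1.34 and not called with spike-in scaling. Compared with astrocytes, Recruited Olig2 cells had 5.80-fold lower Gli2, 7.46-fold lower Smo, 3.50-fold lower Gas1, at least 13.1-fold lower Gli3 and at least 1.40-fold higher Hhip, 4 of 5 lower (22.9% of tested genes) and 1 higher (23.0%).

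Among the tumour models, markers of mature oligodendrocytes and of astrocytes moved with Hhip and Gli2 in Olig2 cells. The summed myelin signal was 15.63, 16.60 and 17.16 in the same Recruited arrays in which Hhip was 5.20, 6.10 and 7.09. It was 12.02 to 13.26 in Pdgf Cre and 12.26 to 12.73 in Pdgf Olig2 cells, where Hhip was at the lowest level. In cortical Olig2 cells it was 16.78 to 16.93, where Hhip was dim at 4.94 to 4.97. All 11 myelin markers were above the limit in Recruited Olig2 cells, against 10 in Pdgf Cre, 6 in Pdgf and 11 in cortical Olig2 cells. The astrocyte sum was 15.69 to 16.17 in Recruited, against 13.33 to 14.17 in Pdgf Cre, 13.14 to 13.66 in Pdgf and 15.45 to 15.50 in cortical Olig2 cells. By Recruited array it was 15.69, 16.17 and 16.03 where Gli2 was 5.66, 5.72 and 5.90, so the order did not fully match. Aldh1l1 itself was at 9.21 in Recruited, against 3.08 in Pdgf Cre, 2.68 in Pdgf and 9.02 in cortical Olig2 cells. Of the astrocyte markers 12 of 13 were above the limit in Recruited Olig2 cells, with Fgfr3 dim, while Gli3 stayed at 2.18 to 2.26 there. The part of other cells in the Hhip and Gli2 values was not tested.

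**Figure D2:**
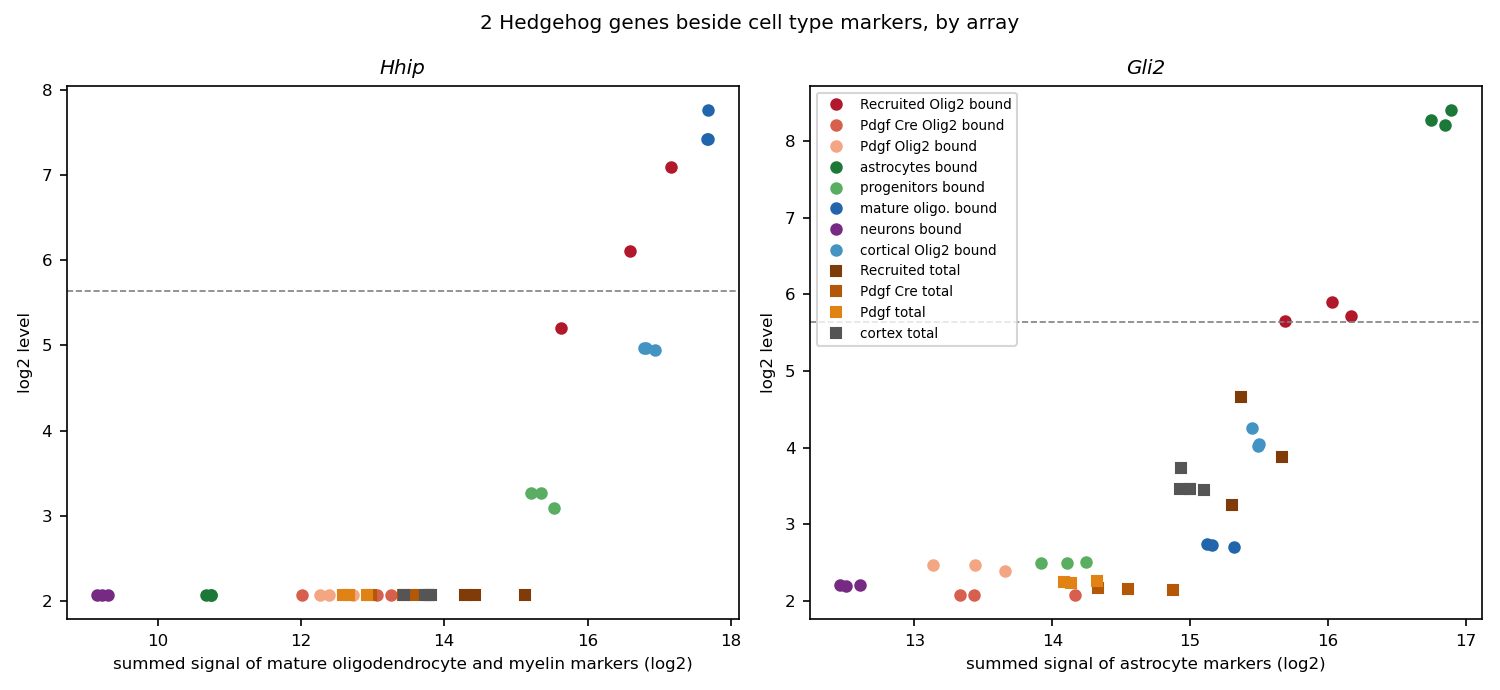
Log2 level of Hhip (left) and Gli2 (right) on each of 38 arrays against the log2 of the summed signal of myelin markers (left) or astrocyte markers (right), with circles for bound RNA, squares for total RNA and the dim limit dashed. The 3 Recruited Olig2 arrays lie at myelin sums of 15.63 to 17.16, far above the other tumour Olig2 arrays, and Hhip above the limit occurs only at sums of 16.60 and more.

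Bound RNA was set against total RNA of the same tumours to ask which transcripts the Olig2 cells hold above their tissue. In Recruited tumours Smo, Hhip and Gli2 rose in bound RNA, 3 of 5 members (24.1% of tested genes called higher). In Pdgf Cre tumours Smo alone rose, 1 of 5 (20.0%), and in Pdgf tumours 0 of 5 passed (32.2% called in either direction; 0 of 5 members also had an unadjusted p under 0.05). Smo was at 6.35 ± 0.49 in Recruited bound RNA, against 4.72 ± 0.53 in its total RNA, at least 1.64-fold higher (log2 difference 1.63 ± 0.24 SE, adjusted p = 1.02e-06). In Pdgf Cre tumours it was at 6.27 ± 0.25 in bound RNA, against 4.89 ± 0.26 in total RNA, at least 1.54-fold higher (1.37 ± 0.24 SE, adjusted p = 1.68e-05). In Pdgf tumours it was at 5.81 ± 0.24 in bound RNA, against 5.36 ± 0.08 in total RNA (0.45 ± 0.24 SE, adjusted p = 0.122). These Smo calls rest on the common scale: with the values as deposited the log2 differences were 0.49 in Recruited, 0.19 in Pdgf Cre and -0.73 in Pdgf tumours, none of them called. With scaling to spike-in controls they were -0.99, -0.40 and -1.90, and the last was called lower. Gli2 in Recruited tumours likewise was 1.83 ± 0.17 SE here, 0.59 as deposited and -0.89 with spike-in scaling. Hhip kept its direction and its call on each of the 3 scales (4.05, 4.01 and 2.52). Gas1 was at 8.77, 9.27 and 8.90 in Recruited bound RNA, against 9.78, 10.58 and 8.31 in its total RNA (-0.58, adjusted p = 0.0679). Without the third total array the difference was -1.20 and called, and with spike-in scaling it was -2.31 and called lower.

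The difference between bound and total RNA was then compared between models in 1 fit. For Hhip it was larger by 4.05 ± 0.31 SE (log2) in Recruited than in Pdgf tumours and by the same in Recruited than in Pdgf Cre tumours (adjusted p = 5.36e-12 and 5.66e-12). Hhip was at the lowest level on every array of Recruited total RNA and of both RNAs of Pdgf and Pdgf Cre tumours. These Hhip values thus repeat how far Recruited bound RNA lay above that level and are no separate result. For Gli2 the difference between bound and total RNA was larger by 1.64 ± 0.24 SE and by 1.91 ± 0.24 SE. For Smo it was larger than in Pdgf tumours by 1.18 ± 0.34 SE (adjusted p = 0.0063), and against Pdgf Cre tumours the difference was 0.26 (95% interval -0.45 to 0.96, adjusted p = 0.596). For Gas1 it was lower by 1.14 ± 0.39 SE than in Pdgf and by 1.19 ± 0.39 SE than in Pdgf Cre tumours (adjusted p = 0.0213 and 0.0173). With the replicate number as a block these Gas1 differences no longer passed (adjusted p = 0.079 and 0.0727). Of the 5 members 3 were higher in the comparison with Pdgf (16.0% of tested genes) and 1 lower (14.0%), and with Pdgf Cre 2 were higher (13.8%) and 1 lower (12.9%). The comparisons share the Recruited arrays. Without the second Recruited bound array the Smo difference was 0.90, and without the first Recruited total array 0.98, each under 2-fold. The Gas1 difference was -0.63 (over Pdgf) and -0.68 (over Pdgf Cre) without the second Recruited total array, and over Pdgf -1.04 without the first Pdgf total array and -1.03 without the first Recruited bound array, none of them called. With the replicate spread raised to its 90th percentile over genes, Hhip alone kept its calls (against Pdgf and Pdgf Cre), and with spike-in scaling the Gli2 differences were 0.69 and -0.11.

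**Figure D3:**
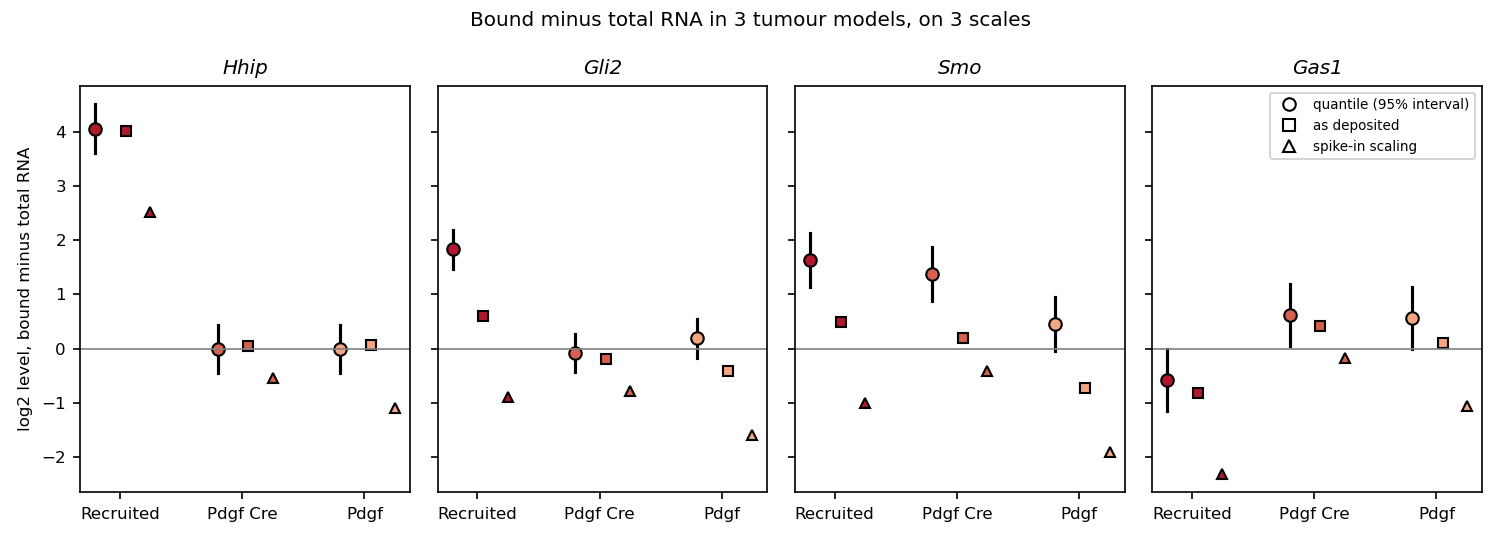
Log2 level in bound RNA minus that in total RNA (vertical axis) for 4 genes in Recruited, Pdgf Cre and Pdgf tumours, on the common quantile scale (circles with 95% interval), as deposited (squares) and with spike-in scaling (triangles). Hhip in Recruited tumours stays above 0 on each scale, while the signs of Smo and Gli2 depend on the scale.

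In total RNA of the tumours Gas1 was the member that set tumour apart from cortex. It was at 9.78, 10.58 and 8.31 in Recruited, 9.55, 9.51 and 9.58 in Pdgf Cre and 8.19, 8.58 and 8.39 in Pdgf tumours, against 5.90 to 5.97 in cortex. It rose 12.3-fold in Recruited (log2 difference 3.63 ± 0.25 SE), 12.3-fold in Pdgf Cre (3.62 ± 0.25 SE) and 5.48-fold in Pdgf tumours (2.45 ± 0.25 SE). Counting dim differences, 3 of 5 members passed in Recruited (50.2% of tested genes in either direction), 4 in Pdgf Cre (47.9%) and 4 in Pdgf tumours (50.5%), but Gas1 alone had a group above the limit, and dim differences are not read further. Markers of pericytes, smooth muscle and fibroblasts moved with Gas1: 10 of 13 were above the limit in Recruited, 9 in Pdgf Cre and 10 in Pdgf total RNA, against 3 in cortex. Their summed signal was 12.09, 15.54 and 13.05 in Recruited, 11.06 to 12.26 in Pdgf Cre and 11.07 to 13.41 in Pdgf total RNA, against 8.995 to 9.61 in cortex. Within a group the order of arrays matched in Pdgf Cre, but not fully in Recruited and not in Pdgf. In Pdgf Cre the sums were 11.85, 11.06 and 12.26 where Gas1 was 9.55, 9.51 and 9.58. Of the Recruited arrays, the one with the highest sum (15.54) had the highest Gas1 (10.58). The one at 13.05 had less Gas1 (8.31) than the one at 12.09 (9.78). The Pdgf array with the highest sum (13.41) had the lowest Gas1 (8.19). In bound RNA of the tumours 1 or 2 of these markers were above the limit while Gas1 was at 8.77 to 10.17. Their summed signal was 9.21, 11.37 and 8.33 on the Recruited bound arrays, where Gas1 was 8.77, 9.27 and 8.90. It was 7.75 to 8.22 in Pdgf Cre and 7.15 to 8.33 in Pdgf bound RNA. The part of these cells in the Gas1 values was not tested.

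Among the bound RNAs of Olig2 cells, Gas1 was highest in Pdgf Cre Olig2 cells. It was 2.32-fold higher there than in Pdgf Olig2 cells (log2 difference 1.22 ± 0.28 SE, adjusted p = 0.000903), where it was 1 of 5 members called higher and 7.77% of tested genes were. It was 2.30-fold higher than in cortical Olig2 cells (1.20 ± 0.28 SE, adjusted p = 0.00051; 17.7% of tested genes), and Recruited Olig2 cells had 2.27-fold less than Pdgf Cre Olig2 cells (-1.18 ± 0.28 SE, adjusted p = 0.000631). As deposited, the difference between Pdgf Cre and Pdgf was 0.94 and that between Recruited and Pdgf Cre was -0.74, each under 2-fold. With spike-in scaling the 3 log2 differences were 0.87 over Pdgf, 0.75 over cortical Olig2 cells and -0.77 in Recruited over Pdgf Cre. None was called then, nor with the replicate spread raised to its 90th percentile over genes (adjusted p = 0.152, 0.0666 and 0.0753). In total RNA Gas1 was 2.24-fold higher in Pdgf Cre than in Pdgf tumours (1.16 ± 0.28 SE, adjusted p = 0.00118; 10.4% of tested genes called higher). As deposited that log2 difference was 0.63 and with spike-in scaling -0.02, neither of them called. In Recruited total RNA it was 2.25-fold above Pdgf total RNA with overlapping arrays (16.7% of tested genes called higher), and without the second Recruited array the log2 difference was 0.66 and no longer reached 2-fold. That difference was not called in a limma fit of the compared groups alone either (adjusted p = 0.209). It also lost its call with the raised replicate spread (adjusted p = 0.0808) and with spike-in scaling (adjusted p = 0.0569).

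Of the other genes of the pathway, the ligand Shh was at 5.94, 5.93 and 5.93 in neurons, at least 1.22-fold above cortex total RNA, where it was at 3.39 to 3.41. It was at 5.82, 5.61 and 5.66 in Recruited Olig2 cells, against 3.12, 3.24 and 3.27 in Recruited total RNA, at least 1.04-fold higher, and dim in the other groups by their means. In astrocytes Shh was at 2.48 to 2.54. Of the ligand and release genes 2 of 3 tested fell in astrocytes over cortex, where 29.8% of all tested genes were called lower, Disp2, a relative of the protein that releases the ligand, at least 4.49-fold and Scube1 at least 2.88-fold. Neuron markers, whose sums are given beside the cilium genes, were lower in astrocytes as well.

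Inside the cell, 7 of 21 tested transduction genes rose and 9 fell in astrocytes over cortex, where 31.1% of all tested genes were called higher and 29.8% lower (median log2 difference -0.22, against 0.01 over all tested genes). Zic2, a zinc finger factor that can bind Gli proteins, rose at least 2.27-fold, and Evc, a ciliary partner of Smo, rose at least 1.11-fold. Prkacb, a catalytic subunit of the kinase PKA, which marks Gli proteins for processing, fell 12.1-fold, and Btrc, which takes phosphorylated Gli proteins to the proteasome, fell at least 3.24-fold. Of 20 tested cilium genes 3 were higher and 9 lower (median -0.79). Ift27 of the transport train rose 6.52-fold, while the kinesin genes Kif3a and Kifap3 fell 7.76-fold and 7.40-fold and Ift88 at least 3.07-fold. Neuron markers moved with these falls: their summed signal was 10.99 to 12.59 in astrocytes, against 16.07 to 16.36 in cortex, and their part was not tested. Of 12 tested target genes other than the members 4 rose and 2 fell (median -0.04), with Nkx2-2 at least 5.30-fold and Bcl2 at least 2.62-fold higher, and Igfbp6 at least 8.09-fold and Mycn at least 2.35-fold lower.

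In total RNA of the tumours Olig2, Ccnd1 and Nkx2-2, all listed as targets of the pathway, were far above cortex. Of 12 tested targets, 7 were higher and 1 lower in Recruited total RNA over cortex (median log2 difference 1.72, against -0.08 over all tested genes), 9 and 1 in Pdgf Cre (2.19, against -0.05) and 9 and 1 in Pdgf tumours (2.25, against 0.00). Of all tested genes 23.7% were called higher and 26.4% lower in Recruited, 22.8% and 25.0% in Pdgf Cre, and 25.0% and 25.5% in Pdgf tumours. The transcription factor gene Olig2 rose 36.4-fold in Recruited, 34.2-fold in Pdgf Cre and 61.2-fold in Pdgf tumours, and the cyclin gene Ccnd1 17.4-fold, 36.1-fold and 35.6-fold in the same order of models. Nkx2-2 rose at least 16.4-fold, 26.4-fold and 80.1-fold, and Igfbp6 fell at least 8.34-fold in each. Olig2 is also on the list of oligodendrocyte progenitor markers, of which all 9 were above the limit in each tumour's total RNA, against 5 in cortex, and the part of cell makeup in the target values was not tested. Gli1 and Ptch1 stayed at the lowest level or within 0.01 of it in every tumour group. Cilium genes were lower for 9 of 20 in Recruited (26.4% of all tested genes), 8 in Pdgf Cre (25.0%) and 12 in Pdgf tumours (25.5%), among them Bbs4, a subunit of the BBSome, 5.13-fold, 5.13-fold and 5.78-fold. The summed neuron marker signal was 15.01 to 16.46 in Recruited, 14.26 to 14.66 in Pdgf Cre and 13.37 to 14.18 in Pdgf total RNA. In cortex it was 16.07 to 16.36, and the part of neurons in the cilium values was not tested.

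In bound RNA the models were set against each other for the same lists. Over Pdgf Olig2 cells (12.8% of all tested genes called higher) 1 of 12 targets rose in Recruited Olig2 cells, the potassium channel gene Kcnj10 by 3.15-fold. Of 21 transduction genes 4 rose, Zic1 at least 2.14-fold, Itch 2.15-fold and Spop 2.14-fold among them. Kcnj10 is also a known gene of glia. Over Pdgf Cre Olig2 cells 2 of 12 targets fell (17.0% of all tested genes called lower), Foxm1, a factor of dividing cells, at least 1.86-fold and the cyclin gene Ccnd2 by 2.84-fold with overlapping arrays (9.44 ± 1.39 SD in Recruited, against 10.94 ± 0.09 in Pdgf Cre Olig2 cells), and Evc and Evc2, which work with Smo at the cilium, fell at least 1.37-fold and 1.23-fold. Over cortical Olig2 cells (12.9% of all tested genes called higher) 2 of 12 targets rose in Recruited Olig2 cells, Mycn at least 3.62-fold and Ccnd2 3.59-fold.

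Over the 12 group means, the genes most like each member by Pearson correlation were, for Gli3, Prdm16 (0.996), Ranbp3l (0.995), Kctd14 (0.986), Ccdc153 (0.984) and Crabp2 (0.981), all above the limit in astrocytes alone. For Gli2 they were Ttc23 (0.967), Acot11 (0.961), Gdpd2 (0.959), Aass (0.958) and Cbs (0.957), and for Smo Chil1 (0.975), Etfa (0.969), Fads2 (0.959), Atp1b2 (0.951) and Nxn (0.95), each highest in astrocytes. For Hhip they were Slc45a3 (0.973), Ankub1 (0.964), Adamtsl4 (0.956), the gap junction gene Gjb1 (0.953) and Adgrv1 (0.952), each highest in mature oligodendrocytes and above the limit in 3 groups. For Gas1 they were Mdfic (0.962), the growth factor gene Mdk (0.957), the stem cell factor Sox2 (0.957), Rhbdf1 (0.957) and Car8 (0.95). Among the members, Smo went with Gas1 (0.868) and Gli3 with Gli2 (0.827), while Hhip ran between -0.42 and 0.14 with the other 4. The correlations describe 12 means that share cell makeup and scaling, and Ccdc153 is on the ependymal list.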

How the data were processed

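RNA was measured on 38 one-colour Affymetrix arrays. The deposited table holds log2 values, made by the authors with GCRMA, per the submitters' processing notes, with 1 probe set per gene. Each group had a lowest value of its own in the deposited table and many replicates were deposited with identical values, from 7.79% to 34.6% of tested genes in a group. The values were quantile normalized over all arrays, and a gene was tested where at least 3 arrays exceeded log2 50 (9799 of 15644 genes). One linear model with 12 group means was fitted in limma 3.58.1 (R 4.3.3) with eBayes and Benjamini-Hochberg adjustment over all tested genes of each comparison, with two-sided tests. It was tested on simulated data. Of the gene IDs 15617 were matched to RefSeq. Replicate numbers paired bound and total arrays of a tumour model, whose same-numbered deviations correlated at 0.266 to 0.626, and in no other comparison did every pair exceed 0.1.

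The 6 genes and all lists were chosen with earlier results of these data known. Of the other pathway lists up to 4 called genes per comparison with the largest difference could be named, plus Gli1, Shh, Cdon, Boc and Sufu, and for each member the 5 genes with the highest correlation. Alternatives were the deposited scale, scaling to 15 spike-in probe sets, other dim filters, array weights, a variance trend, fits of the compared groups alone, the replicate block and leaving out each replicate. A floor on the variance at its 90th percentile and a call that needs a group mean above the dim limit were added after the data were seen. The number of arrays limits the precision.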

Additional observations from a re-analysis of the deposited data

Results flagged for a closer look

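The difference between bound and total RNA differed between tumour models for 4 genes in the interaction test of the limma fit. Of all tested genes 16.0% were called higher and 14.0% lower in Recruited over Pdgf, and 13.8% and 12.9% in Recruited over Pdgf Cre. With the replicate spread raised to its 90th percentile over genes, Hhip alone kept its calls. For Hhip the difference between bound and total RNA was 4.05 (log2) larger in Recruited than in Pdgf tumours and 4.05 larger than in Pdgf Cre tumours. Since Hhip was at the lowest level in every other tumour group, both values only restate its level in Recruited bound RNA. For Gli2 the difference was larger by 1.64 and 1.91 in the same order, and among the tumour groups Gli2 was above the dim limit in Recruited bound RNA alone. For Smo it was 1.18 in Recruited over Pdgf tumours. For Gas1 it was -1.14 in Recruited over Pdgf and -1.19 in Recruited over Pdgf Cre tumours, and with replicate numbers as blocks neither passed.

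In cortex total RNA, 1 of the 5 arrays stood away from the other 4 for Gli2, at 3.74, and 1 for Smo, at 2.72, each by Dixon's criterion. Both are under the dim limit. In both cases the other 4 arrays were deposited with identical values (3.50 for Gli2, 2.61 for Smo), and only the common scaling set them apart. An array with another value then stands against values that differ only by the scaling, so no chance rate applies. Gli3 had the same pattern, deposited at 4.36 on 4 arrays and 4.37 on 1, and was not flagged. In all, 6 sets of 5 unequal values were looked at, 1 per gene, all from cortex total RNA.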

How the results depend on the processing

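Among the single-gene values under the alternatives 2376 stayed on their side of the threshold, 81 lost their call, 23 gained one and 10, called on at least 1 of the 2 scales, changed sign. Among the 2376 a further 35, called on neither, changed sign, 9 with the deposited values, 11 with spike-in scaling and 15 under other alternatives; Smo (-0.73) and Gli2 (-0.42) in Pdgf bound over total RNA are 2 of those as deposited. The astrocyte differences of Smo, Gli3, Gas1 and Gli2 over cortex and that of Hhip in mature oligodendrocytes over cortex kept direction and call under every alternative run. The replicate block ended the 2 Gas1 ratio calls and changed no other call of a member. The depth of measurement is set by signal over background: most Hhip, Gli2, Gli3 and Shh values lie under the dim limit.

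Counts of members called changed as follows. With the deposited values 0 were called (against 1) in Pdgf Cre bound over total RNA and in Pdgf Cre over Pdgf, bound and total RNA, and 2 (against 1) in Recruited over Pdgf Cre total RNA. With spike-in scaling 5 (against 3) were called in mature oligodendrocytes over cortex and in progenitors over mature oligodendrocytes, 4 (against 0) in Pdgf bound over total RNA, 0 (against 1) in Pdgf Cre bound over total RNA and in Pdgf Cre over Pdgf bound RNA, 0 (against 2) in Recruited over cortical Olig2 cells, 3 (against 1) in Recruited over Pdgf Cre total RNA, and 2 (against 4) in the Recruited over Pdgf ratio. With only the groups compared 1 (against 2) was called in Recruited over cortical Olig2 cells and in Recruited over Pdgf total RNA, and 2 (against 4) in the Recruited over Pdgf ratio. With the spread floor 1 (against 2) was called in the first pair of these, 0 (against 1) in Pdgf Cre over Pdgf, bound and total RNA, and 1 in the ratios of Recruited over Pdgf (against 4) and over Pdgf Cre (against 3). Requiring a group mean above the dim limit left 1 in neurons (against 3), progenitors (5) and cortical Olig2 cells (4) over cortex, 0 in Pdgf (2) and 1 in Pdgf Cre (3) over cortical Olig2 cells, 1 in Pdgf (4), Pdgf Cre (4) and Recruited (3) tumours over cortex, and in Recruited total RNA 1 over Pdgf (2) and 0 over Pdgf Cre (1). Leaving out 1 array gave 0 to 1 calls in the Pdgf Cre over Pdgf ratio (1 without the third Pdgf bound array), 1 to 2 in Recruited over cortical Olig2 cells (1 without the third Recruited bound array) and 1 to 2 in Recruited over Pdgf total RNA (1 without the second Recruited total array).

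The 10 sign changes that involve a call all came with spike-in scaling. In progenitors over mature oligodendrocytes Gli3 was 1.63 and Gli2 1.74 (log2). In bound over total RNA Smo was -1.90 and Gli2 -1.59 in Pdgf, Smo -0.40 in Pdgf Cre, and Smo -0.99 and Gli2 -0.89 in Recruited tumours. Gli3 was 0.38 in Recruited tumours over cortex, Gas1 -0.015 in Pdgf Cre over Pdgf total RNA, and Gli2 -0.11 in the Recruited over Pdgf Cre ratio. The cause was not tested.

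Counts over all genes moved more than 1.5 times as follows. With the deposited values neurons over cortex had 4774 calls (main 2765). With spike-in scaling there were 5841 (3792) in progenitors over mature oligodendrocytes, 6796 (3157) in Pdgf and 7381 (4340) in Recruited bound over total RNA. Recruited bound RNA had 1728 (2694) over cortical Olig2 cells and 1620 (2524) over Pdgf, and Pdgf Cre over Pdgf bound RNA had 883 (1630). In total RNA there were 2130 (3383) in Recruited over Pdgf, 5640 (3612) in Recruited over Pdgf Cre and 4106 (2072) in Pdgf Cre over Pdgf. The ratios had 1065 (2943) in Recruited over Pdgf, 1643 (2617) in Recruited over Pdgf Cre and 282 (1209) in Pdgf Cre over Pdgf. Recruited over Pdgf total RNA had 2170 calls with array weights and 2045 with only the groups compared, and the Recruited ratios had 1709 and 1744 over Pdgf and 1565 and 1713 over Pdgf Cre. With the spread floor there were 1636 in Recruited over cortical Olig2 cells, 1576 in Recruited over Pdgf bound RNA, 646 in Pdgf Cre over Pdgf bound and 1076 in its total RNA, and 1041, 820 and 100 in the ratios of Recruited over Pdgf, Recruited over Pdgf Cre and Pdgf Cre over Pdgf.

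The median difference of all genes lay between -0.08 and 0.13 (log2) over the 29 comparisons, between -0.66 and 0.66 as deposited and between -1.83 and 1.41 with spike-in scaling. The share of called genes that were higher moved by over 10 percentage points in 14 comparisons as deposited and in 20 with spike-in scaling. In bound over total RNA it was 54.4% in Recruited (31.6% as deposited, 2.29% with spike-in scaling), 52.5% in Pdgf Cre (23.3%, 3.01%) and 52.4% in Pdgf tumours (17.9%, 0.544%). For Recruited bound RNA it was 50.7% over Pdgf Cre (70.9%, 69.8%) and 47.0% over cortical Olig2 cells (63.7%, 34.3%). It was 46.7% in Pdgf Cre over Pdgf bound RNA (29.3%, 31.03%) and 49.0% in their total RNA (26.6%, 5.67%). Over cortex it was 49.5% in Pdgf (66.0%, 84.3%) and 47.3% in Recruited tumours (69.9%, 91.0%), and 47.5% in neurons (75.4% as deposited). It was 49.3% in Recruited over Pdgf Cre total RNA (75.1%, 95%), 48.5% in astrocytes over neurons (32.4% as deposited), 48.6% in progenitors over mature oligodendrocytes (35.4%, 91.5%) and 49.0% in the Pdgf Cre over Pdgf ratio (60.4%, 90.8%). With spike-in scaling alone it moved to 12.7% (main 47.6%) in mature oligodendrocytes and 41.4% (52.5%) in cortical Olig2 cells over cortex, 78.5% (47.8%) in astrocytes over mature oligodendrocytes, 36.9% (50.02%) in Pdgf and 24.96% (49.2%) in Pdgf Cre over cortical Olig2 cells, 68.4% (48.4%) in Recruited over Pdgf total RNA, and 39.6% (53.3%) and 13.3% (51.8%) in the Recruited ratios over Pdgf and Pdgf Cre.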
